A study of Arabidopsis thaliana with 16 samples.

Results

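Transcript levels in seu-6 seedlings kept in sorbitol were compared with those in Col-0 seedlings kept in the same medium. The comparison rests on 4 of the 16 libraries of the series, 2 of each genotype, which were chosen by their labels and by no measured value. Col-0 is the wild type, and seu-6 is a mutant of the gene SEUSS (SEU). The sources used here do not say what the seu-6 lesion is or how many seedlings went into a library. Both genotypes were raised in days of 16 h light and 8 h dark and harvested whole, roots included, at an age of 10 days. The sorbitol groups were moved to liquid 1/2 MS, a mineral medium for plants, with 250 mM sorbitol for 6 h. The seu-6 and Col-0 mock groups, 2 libraries each, spent 6 h in the liquid medium without sorbitol and are used here to set the genotype difference of the unstressed seedlings beside that in sorbitol. The other 8 libraries belong to an experiment with NaCl and entered 1 alternative fit only. Going by the series title, which links SEUSS condensates to coping with hyperosmotic stress, the question addressed is which transcripts differ when a seedling without full SEU function meets a hyperosmotic medium.

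SEUSS is a transcriptional adaptor that acts with the co-repressors LEUNIG and LEUNIG HOMOLOG and is best known from the control of floral organ genes and of auxin responses in developing organs. Sorbitol outside the cell lowers the water potential of the medium, and plants meet such a water deficit by making the hormone abscisic acid (ABA). Receptors of the PYR/PYL family that have bound ABA block phosphatases of the PP2C family, which frees SnRK2 kinases to activate ABF transcription factors, and these drive genes of dehydration protection; the genes of many PP2Cs and ABFs are themselves raised by ABA.

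Gene counts lay between 39756463 and 42100411 per library over the 8 libraries of the sorbitol experiment, and the summary lines outside genes held between 8.78% and 12.7% of the reads. The log2 CPM of 2 replicates had a Pearson correlation, taken over genes, of at least 0.99 in each group. On a principal component analysis the first component, with 62.9% of the variance, separated sorbitol from mock, and the second component, with 19.7%, separated seu-6 from Col-0. Values below are CPM, counts scaled to library size with TMM factors, and a fold change is log2 of seu-6 over Col-0 ± its standard error with 2 libraries per group. CPM is not corrected for gene length, so levels are compared between groups and not between genes. Because whole seedlings were extracted, fewer cells of a type and less RNA per cell cannot be told apart in any result below. Counts of genes with near-identical copies or overlapping neighbours are uncertain, which concerns the LHCB1, RBCS, PIP2, KIN, AOC, CBF and TIP3 genes and the overlap of SEU with AT1G43860.

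SEU (AT1G43850) itself was nearly absent from the mutant. It had 0.651 and 0.421 CPM in seu-6, against 56.2 and 57.1 CPM in Col-0, from 25 and 17 counts in seu-6 and 2230 and 2300 counts in Col-0. Both mutant libraries lay far below both wild-type libraries (log2 fold change -6.72 ± 0.13, edgeR adjusted p = 4.9e-47), which is the direction the labels imply. The means were 0.536 ± 0.163 CPM in seu-6 and 56.7 ± 0.658 CPM in Col-0 (SD, n = 2 each). Its relatives and partners differed little. The SEUSS-LIKE gene SLK3 (AT4G25515) was called higher (log2 fold change 0.35 ± 0.12, edgeR adjusted p = 0.013) and SLK2 lower (log2 fold change -0.15 ± 0.053, edgeR adjusted p = 0.018). The SLK3 call was lost without the second seu-6 library (edgeR adjusted p = 0.251) or the second Col-0 library (edgeR adjusted p = 0.118), and the SLK2 call with DESeq2 (adjusted p = 0.0534) or without the first seu-6 or the first Col-0 library (edgeR adjusted p = 0.109 and 0.0805). SLK1, LEUNIG (LUG) and LEUNIG HOMOLOG (LUH) did not pass the test, with log2 fold changes of -0.02 ± 0.050, -0.06 ± 0.049 and -0.07 ± 0.034.

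Sorbitol-treated seu-6 and Col-0 differed at 7540 genes. Of 21633 genes tested, 3784 were called higher in seu-6 (17.5%) and 3756 lower (17.4%), together 34.9%, at an edgeR adjusted p under 0.05. Most differences were small. The median size among the called genes was 0.37 on the log2 scale, and 515 of the higher and 464 of the lower genes differed by more than 2-fold. Over all genes tested the median log2 fold change was -0.0005, close to 0.

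**Figure D1:**
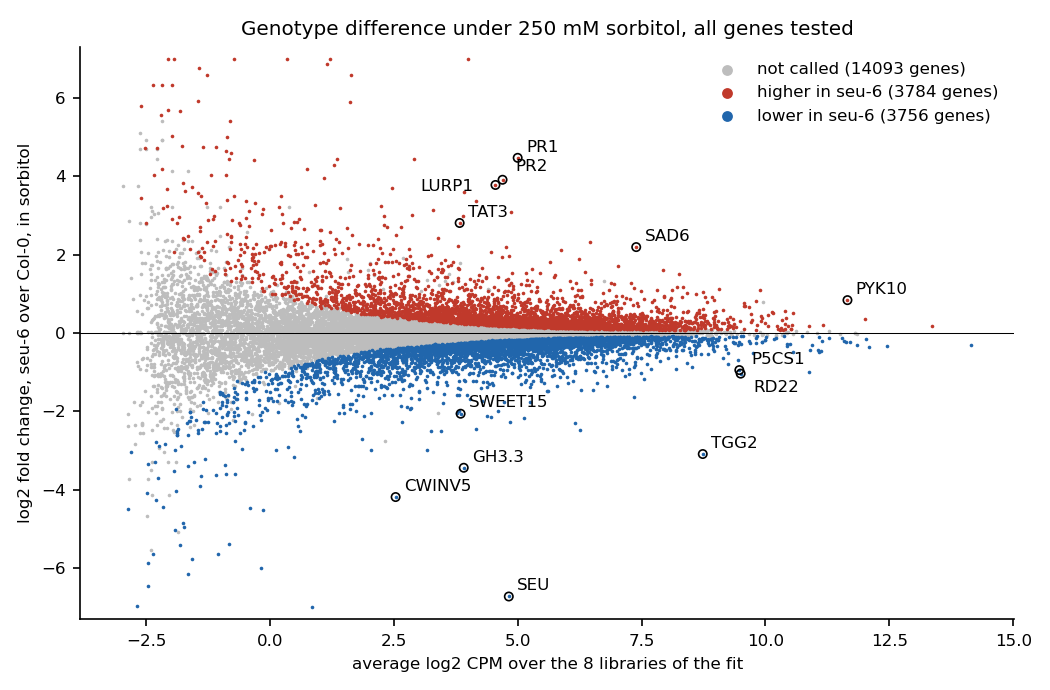
Genotype difference of every gene tested in sorbitol. The horizontal axis is the average log2 CPM and the vertical axis the log2 fold change of seu-6 over Col-0, with values beyond 7 drawn at 7; red points are the 3784 genes called higher in seu-6, blue points the 3756 called lower and grey points the rest, and circled genes are named. PR1 lies at 4.47 and SEU at -6.72, and RD22 and P5CS1 lie at -1.04 and -0.95 at high expression.

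The 12 largest rises, among genes of an average log2 CPM of at least 2 over the 8 libraries, included several pathogenesis-related genes. AT4G29200, annotated as a beta-galactosidase related protein, had 26.7 and 31.6 CPM in seu-6, against 0 and 0 CPM in Col-0. No read of it was counted in any Col-0 library, so seu-6 was at least 389-fold higher against a floor of 3 counts per library. It was also counted in the seu-6 mock, at 34 and 34.4 CPM. PR1 (AT2G14610), the classic marker of salicylate defence, had 80.7 and 76 CPM in seu-6, against 3.5 and 3.55 CPM in Col-0 (log2 fold change 4.47 ± 0.098, edgeR adjusted p = 7.7e-38). PR2 (AT3G57260), a beta-glucanase of the same response, had 70.7 and 73.3 CPM in seu-6, against 5.09 and 4.47 CPM in Col-0 (log2 fold change 3.91 ± 0.097, edgeR adjusted p = 7.4e-38). In both genes the seu-6 libraries lay far above those of Col-0. Genes shown library by library here and below were picked by their change, by a p or after their values were seen. That choice makes such a separation of the libraries very likely, so it adds no support. LURP1, named for its late upregulation in response to a downy mildew pathogen, rose by 3.78 ± 0.096, and PCR1 by 3.7 ± 0.20. Aspartyl protease family gene AT5G10760 (3.37 ± 0.11), the PR1-related AT4G33720 (3.09 ± 0.087), the receptor-like protein gene RLP23 (3.0 ± 0.16), the receptor-like kinase gene CRK30 (3.14 ± 0.32) and AT3G22235 (3.24 ± 0.22) also rose, with edgeR adjusted p at most 1.7e-12. CRK30 was low in sorbitol, with 1.48 and 1.86 CPM in seu-6, against 0.0756 and 0.298 CPM in Col-0. It met the limit on average log2 CPM through the mock libraries, at 14.5 and 15.7 CPM in seu-6 and 22.8 and 20.4 CPM in Col-0. The others were the seed storage genes CRC and CRA1, which met that limit only through the seu-6 mock libraries. Their means there were 29.3 and 59 CPM, against 0.0645 and 0.953 CPM in seu-6 in sorbitol. They are described below with their low levels in sorbitol.

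Among the largest falls after SEU were genes of sugar, auxin, glucosinolate and cytokinin metabolism. CWINV5 (AT3G13784), a cell wall invertase gene, had 1.38 and 0.867 CPM in seu-6, against 19 and 21.8 CPM in Col-0 (log2 fold change -4.19 ± 0.19, edgeR adjusted p = 1.7e-27). TGG2 (AT5G25980), one of the myrosinases that break down glucosinolates, had 104 and 106 CPM in seu-6, against 879 and 902 CPM in Col-0 (log2 fold change -3.09 ± 0.037, edgeR adjusted p = 2.5e-58). The groups stood far apart for both genes, and TGG2 was the gene of smallest p in the whole comparison. GH3.3 (AT2G23170), which conjugates auxin to amino acids, had 1.8 and 2.03 CPM in seu-6, against 19.6 and 22 CPM in Col-0 (log2 fold change -3.44 ± 0.14, edgeR adjusted p = 9.5e-28). LOG5, an enzyme of cytokinin activation, fell by 2.98 ± 0.21 on the log2 scale, the cutinase gene CDEF1 by 2.3 ± 0.052 and the growth-regulating factor gene GRF5 by 2.28 ± 0.18. The others were ORP4C (-2.5 ± 0.12), BRG2 (-2.97 ± 0.15), MAKR6 (-2.44 ± 0.10), AT2G47780 (-2.49 ± 0.13), annotated as a rubber elongation factor protein, and AT3G16670 (-2.47 ± 0.070), annotated with pollen Ole e allergens and extensins. AT1G06957, a long noncoding RNA, had no read in either seu-6 sorbitol library and was at least 50.9-fold lower than in Col-0 against the same floor. Levels of 12 genes in each library are shown in the plot of levels.

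**Figure D2:**
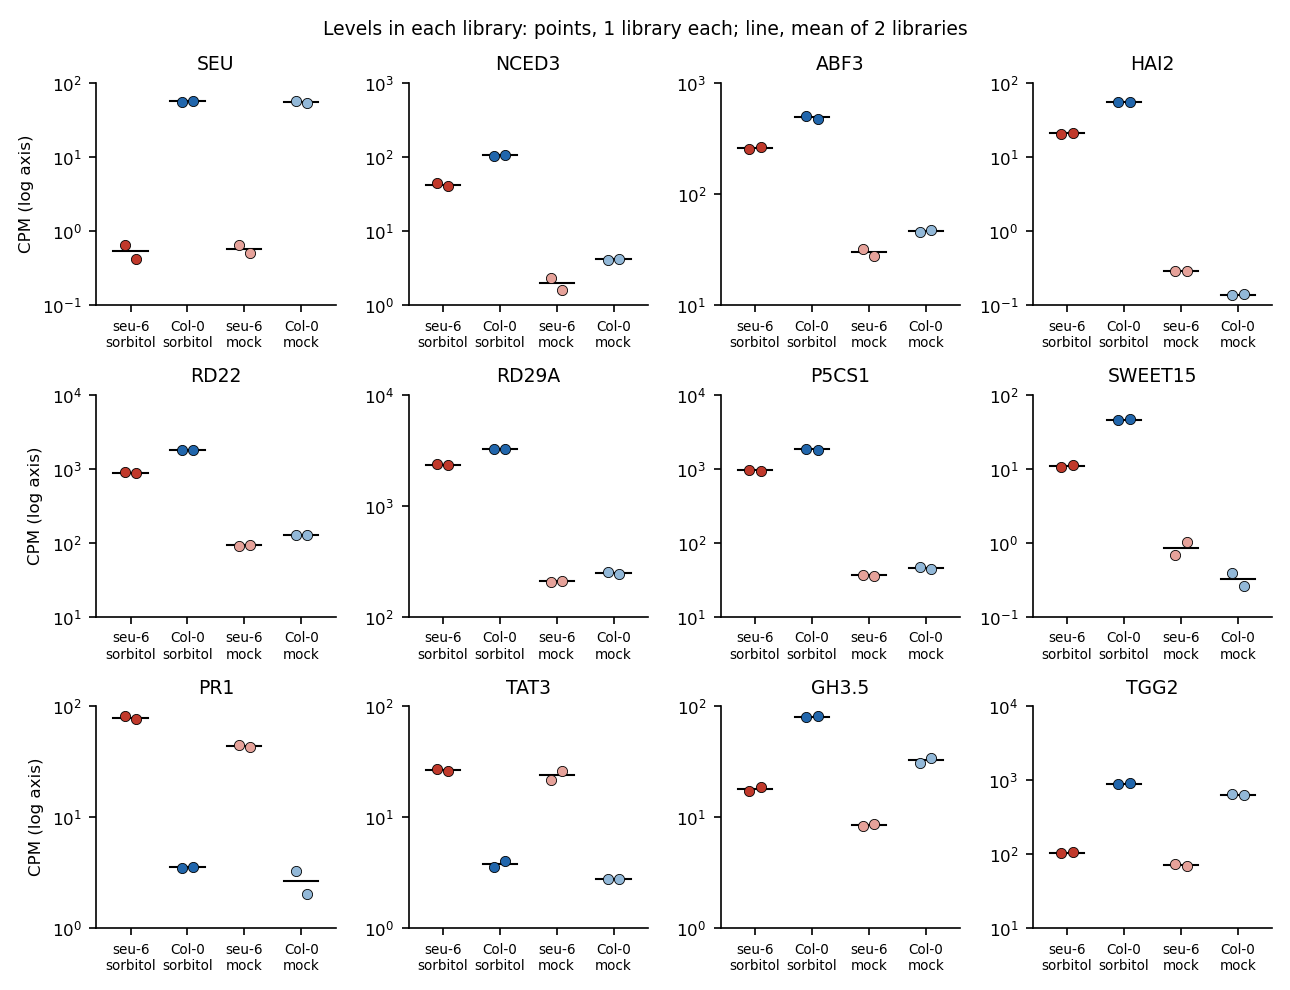
Levels of 12 genes in each library, in CPM on a log axis. Each point is 1 library, each line the mean of 2, and groups run from seu-6 sorbitol and Col-0 sorbitol to seu-6 mock and Col-0 mock. In sorbitol the seu-6 points lie below those of Col-0 for SEU, NCED3, ABF3, HAI2, RD22, RD29A, P5CS1, SWEET15, GH3.5 and TGG2, and above them for PR1 and TAT3.

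Dehydration genes were lower in seu-6 under sorbitol. Of 24 effector genes of dehydration and ABA, all tested, 22 fell and 2 rose, with a median log2 fold change of -0.46, where 17.4% of all genes fell and 17.5% rose, the shares that stand behind the counts of every list in sorbitol. RD22 (AT5G25610), a dehydration-induced cell wall protein gene, had 893 and 861 CPM in seu-6, against 1807 and 1790.2 CPM in Col-0 (log2 fold change -1.04 ± 0.031, edgeR adjusted p = 2e-36). RD20 (AT2G33380), a caleosin gene, had 181 and 177 CPM in seu-6, against 388 and 381 CPM in Col-0 (log2 fold change -1.1 ± 0.039, edgeR adjusted p = 3.9e-33). RD29A (AT5G52310), a standard reporter gene of osmotic stress, had 2386 and 2301 CPM in seu-6, against 3252 and 3249 CPM in Col-0 (log2 fold change -0.47 ± 0.029, edgeR adjusted p = 2.5e-21). For each of the 3 genes both seu-6 libraries were lower than both Col-0 libraries. The dehydrin gene ERD14 (AT1G76180) had 671 and 667 CPM in seu-6, against 1054 and 1019.7 CPM in Col-0 (log2 fold change -0.63 ± 0.034, edgeR adjusted p = 1.3e-22), and the dehydrins ERD10 (-0.51 ± 0.032), RAB18 (-0.62 ± 0.044), LTI30 (-0.42 ± 0.035) and COR47 (-0.33 ± 0.029) also fell. TSPO, a membrane protein gene strongly induced by ABA, fell by 1.2 on the log2 scale, the late embryogenesis abundant gene LEA4-5 by 0.83 and RD29B by 0.45, and KIN1 changed least (-0.09 ± 0.034). The exceptions were the chloroplast protein gene COR15B (0.43 ± 0.044) and DI21 (0.35 ± 0.042), which rose, while COR15A fell (-0.43 ± 0.033). Summed over the 24 genes, the level was 12384 and 12065 CPM in seu-6, against 16768 and 16900.4 CPM in Col-0. In the mock the sum was 2569 and 2665 CPM in seu-6, against 2379 and 2399 CPM in Col-0, so the direction of the sum was the other way there. The seu-6 mock libraries also held seed storage transcripts, at 184 and 184 CPM in seu-6, against 0.390 and 0.541 CPM in Col-0 summed over 12 genes, and their part in the mock sum was not tested.

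Along the ABA chain, genes of synthesis fell and receptor genes mostly rose. Of 12 genes of ABA synthesis, release and breakdown tested out of 14, 7 fell and 0 rose (median -0.44); the other 2 stayed at or under 0.165 CPM in every library. NCED3 (AT3G14440), the stress-induced enzyme of the committed step of ABA synthesis, had 44.2 and 41 CPM in seu-6, against 103 and 108 CPM in Col-0 (log2 fold change -1.31 ± 0.063, edgeR adjusted p = 4.8e-26). ABA1 (AT5G67030), zeaxanthin epoxidase, had 528 and 530.0 CPM in seu-6, against 775 and 756 CPM in Col-0 (log2 fold change -0.53 ± 0.032, edgeR adjusted p = 1.5e-21). BG1, a glucosidase that releases ABA from its glucose ester, fell by 0.77 ± 0.033. Transcripts of breakdown were lower as well: the ABA hydroxylase genes CYP707A2 (-1.5 ± 0.13) and CYP707A3 (-0.51 ± 0.12) fell too. In the mock 2 of the 12 genes were higher and 4 lower (median -0.13), where 16.0% of all genes were higher and 11.8% lower. Of their interactions, the genotype difference in sorbitol minus that in the mock, 2 were called lower and 0 higher. Over all genes tested 7.38% of interactions were called lower and 5.62% higher. These shares stand behind the interaction counts of every list. Of the 9 receptor genes 5 rose and 1 fell in sorbitol (median 0.27), against 5 higher and 0 lower in the mock (median 0.22). Among their interactions 2 were called higher and 1 lower. PYL4 had 23 and 22 CPM in seu-6, against 17.2 and 16.4 CPM in Col-0 (log2 fold change 0.42 ± 0.061, edgeR adjusted p = 7.7e-08), PYL8 rose by 0.27 ± 0.044 and PYR1 by 0.27 ± 0.059. The receptor that fell was PYL5 (-0.21 ± 0.077); the rise of PYL1 (0.39 ± 0.097) was not called without the second seu-6 library (edgeR adjusted p = 0.113).

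Downstream of the receptors, 8 of 9 clade A PP2C genes fell and 0 rose, with a median of -0.65; the other, AHG1, with 0.391 and 0.396 CPM in seu-6, against 0.202 and 0.174 CPM in Col-0 (log2 fold change 1.06 ± 0.83, edgeR adjusted p = 0.35), did not pass the test. HAB1 (AT1G72770) had 167 and 167 CPM in seu-6, against 326 and 318 CPM in Col-0 (log2 fold change -0.94 ± 0.041, edgeR adjusted p = 3.1e-28). ABI1 (AT4G26080) had 293 and 294 CPM in seu-6, against 455 and 442 CPM in Col-0 (log2 fold change -0.61 ± 0.033, edgeR adjusted p = 6.8e-24). HAI2 (AT1G07430) had 20.6 and 21.3 CPM in seu-6, against 56.2 and 55 CPM in Col-0 (log2 fold change -1.41 ± 0.082, edgeR adjusted p = 1.8e-22). In each case the highest seu-6 library was below the lowest Col-0 library. PP2CA fell by 0.64 ± 0.036, ABI2 by 0.92 ± 0.057 and HAI1 by 0.65 ± 0.067. Of 15 SnRK2 kinase and ABF genes 8 fell and 4 rose (median -0.15). The transcription factor gene ABF3 (AT4G34000) had 254 and 266 CPM in seu-6, against 502 and 478 CPM in Col-0 (log2 fold change -0.91 ± 0.038, edgeR adjusted p = 9.4e-25), and ABF2 fell by a similar size (-0.96 ± 0.051). ABF1 went the other way, with 130.5 and 133 CPM in seu-6, against 97.8 and 93.4 CPM in Col-0 (log2 fold change 0.46 ± 0.045, edgeR adjusted p = 3.2e-13). Among the kinases SNRK2.6, which acts in guard cell closure, fell (-0.40 ± 0.069), SNRK2.7 and SNRK2.3 also fell (-0.74 ± 0.14 and -0.29 ± 0.072), and SNRK2.2 rose slightly (0.16 ± 0.036).

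Drought-related NAC, MYB and HD-Zip factor genes were mostly lower in seu-6. Of 16 NAC, MYB and HD-Zip factor genes of drought and ABA 12 fell and 1 rose (median -0.70). HB-7 (AT2G46680) and HB-12 are homeodomain genes induced by ABA. HB-7 had 229.5 and 229.7 CPM in seu-6, against 471 and 458 CPM in Col-0 (log2 fold change -1.02 ± 0.037, edgeR adjusted p = 1.6e-31), and HB-12 had 72.6 and 65 CPM in seu-6, against 151 and 147 CPM in Col-0 (log2 fold change -1.11 ± 0.053, edgeR adjusted p = 8.5e-26). NAC019 (AT1G52890) had 37.9 and 36.3 CPM in seu-6, against 92.1 and 89.1 CPM in Col-0 (log2 fold change -1.29 ± 0.064, edgeR adjusted p = 1.5e-25). The groups did not overlap for any of the 3, which their choice by p makes very likely. MYB96, an activator of cuticular wax genes in drought, fell by 1.25 ± 0.067, RD26 by 0.77 ± 0.051 and ATAF1 by 0.62 ± 0.053; the gene that rose was ATAF2 (0.19 ± 0.060). The CBF/DREB and ERF list was mixed, with 5 higher and 4 lower of 16 tested (median 0.09). CBF3, a cold and drought activator of COR genes, had 9.69 and 8.79 CPM in seu-6, against 19.3 and 20.9 CPM in Col-0 (log2 fold change -1.12 ± 0.13, edgeR adjusted p = 7.8e-11), and ABR1, an ERF repressor of ABA responses, fell by 0.95 ± 0.12. The ethylene response factor genes ERF1A (0.77 ± 0.073) and ERF104 (0.93 ± 0.11) rose.

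Rapidly induced wound, touch and elicitor genes were higher in seu-6. Of 17 ZAT, WRKY, touch and kinase genes 11 rose and 0 fell (median 0.40). The calmodulin-like gene CML38 (AT1G76650) had 12 and 12.1 CPM in seu-6, against 3.76 and 3.95 CPM in Col-0 (log2 fold change 1.64 ± 0.13, edgeR adjusted p = 1.3e-16). TCH3, another calmodulin-like gene, had 52.4 and 49.4 CPM in seu-6, against 30.1 and 31 CPM in Col-0 (log2 fold change 0.73 ± 0.056, edgeR adjusted p = 3.7e-17). MPK3, a MAP kinase gene of stress signalling, rose by 0.56 ± 0.045, and WRKY33, a regulator of camalexin synthesis, by 0.44 ± 0.051. Both seu-6 libraries exceeded both Col-0 libraries for each of these genes. The list was also higher in seu-6 in the mock, with 13 higher and 0 lower (median 0.57), where 16.0% of all genes were higher. Of its interactions 4 were called higher and 4 lower.

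Genes of the compatible solute proline and of raffinose-type sugars moved in both directions. P5CS1 (AT2G39800), the stress-induced enzyme of the first step of proline synthesis, had 949 and 937 CPM in seu-6, against 1831 and 1801 CPM in Col-0 (log2 fold change -0.95 ± 0.031, edgeR adjusted p = 2.5e-34). P5CS2, the housekeeping copy, fell less (-0.27 ± 0.033), and P5CR, the next enzyme, rose (0.27 ± 0.045). PRODH2, a proline dehydrogenase that degrades proline, had 21.6 and 20.5 CPM in seu-6, against 10.5 and 9.52 CPM in Col-0 (log2 fold change 1.07 ± 0.11, edgeR adjusted p = 1.6e-12). The largest change in the proline list was in the transporter gene PROT3, at low levels of 1.25 and 0.396 CPM in seu-6, against 3.55 and 4.17 CPM in Col-0 (log2 fold change -2.24 ± 0.30, edgeR adjusted p = 1.8e-08). Over the 9 proline genes 4 fell and 2 rose, with a median of -0.08. Of 13 genes of raffinose-type sugars, starch breakdown and sugar export, 6 fell and 4 rose. The sucrose exporter gene SWEET15 (AT5G13170) had 10.7 and 11.3 CPM in seu-6, against 45.7 and 46 CPM in Col-0 (log2 fold change -2.06 ± 0.10, edgeR adjusted p = 1.5e-25). Galactinol synthase GOLS2 had 20.6 and 24.4 CPM in seu-6, against 47.7 and 43.9 CPM in Col-0 (log2 fold change -1.03 ± 0.091, edgeR adjusted p = 9e-15). Sucrose synthase SUS3 had 42.9 and 39.6 CPM in seu-6, against 83 and 87.9 CPM in Col-0 (log2 fold change -1.05 ± 0.067, edgeR adjusted p = 9.2e-20). The 3 genes were lower in both seu-6 libraries than in both Col-0 libraries. The beta-amylase gene BAM1 fell (-0.46 ± 0.044) and BAM3 rose (0.43 ± 0.081). Of 7 polyol transporter and sorbitol dehydrogenase genes, which bear on sorbitol itself, 5 passed the filter; 3 rose and 1 fell. The sorbitol dehydrogenase gene SDH had 154 and 148 CPM in seu-6, against 132 and 131 CPM in Col-0 (log2 fold change 0.20 ± 0.039, edgeR adjusted p = 4.7e-05), and the transporter gene PLT5 rose by 0.32 ± 0.047, while PLT3 fell by 0.71 ± 0.18. The call of the third riser, PLT6, was lost without either seu-6 library or without the second Col-0 library (edgeR adjusted p = 0.0538, 0.115 and 0.167).

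Genes of water channels fell at the plasma membrane and were mixed at the tonoplast. Of 13 plasma membrane aquaporin genes 7 fell and 2 rose (median -0.25). PIP1;4 had 170.1 and 171 CPM in seu-6, against 252 and 268 CPM in Col-0 (log2 fold change -0.61 ± 0.037, edgeR adjusted p = 1.5e-21). PIP1;2 (-0.41 ± 0.031), PIP1;3 (-0.42 ± 0.034) and PIP2;1 (-0.33 ± 0.032) also fell, and PIP1;1 (0.13 ± 0.033) and PIP1;5 (0.14 ± 0.050) rose slightly. Of 10 tonoplast aquaporin genes 8 were tested, 3 rose and 2 fell (median -0.04). TIP2;3 had 20.2 and 21.6 CPM in seu-6, against 10.6 and 12.3 CPM in Col-0 (log2 fold change 0.87 ± 0.095, edgeR adjusted p = 1.8e-11), and TIP2;2 fell by 0.31 ± 0.046. Another riser was the seed-type TIP3;1, with only 0.260 and 0.322 CPM in seu-6, against 0 and 0 CPM in Col-0. Among 16 ion transport genes 2 rose and 4 fell, with a median of -0.08. The proton pump gene AHA2 rose (log2 fold change 0.45 ± 0.032, edgeR adjusted p = 5.2e-18) and AHA1 fell slightly (-0.13 ± 0.031), and the SOS1, SOS2 and SOS3 genes of sodium export did not pass the test (0.09 ± 0.068, -0.19 ± 0.12 and -0.31 ± 0.14).

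**Figure D3:**
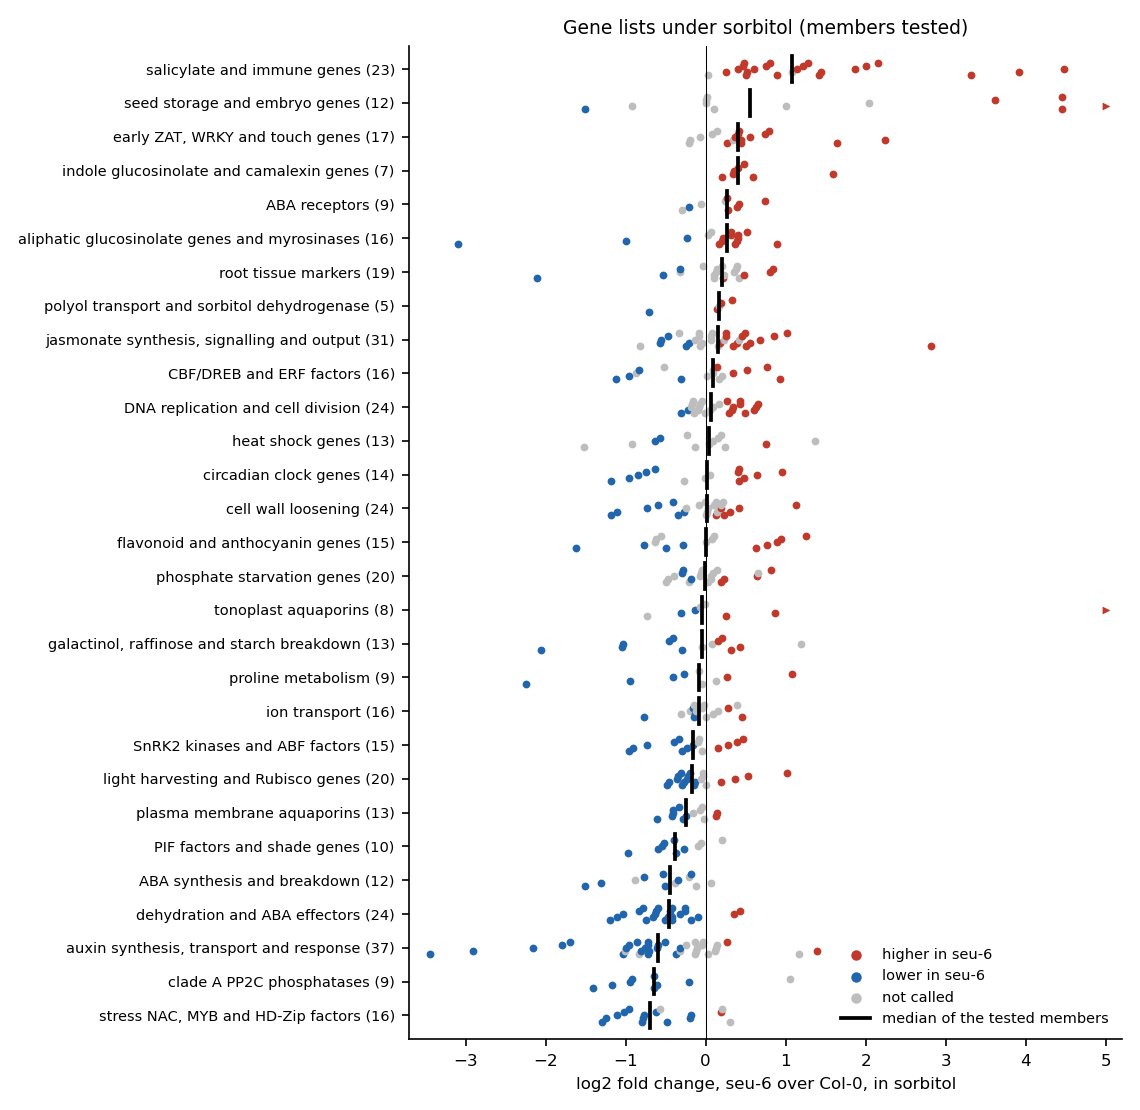
Log2 fold change of seu-6 over Col-0 in sorbitol for the tested members of 29 gene lists, with the number tested in brackets. Each point is a gene, red if called higher, blue if called lower and grey if not called; black bars are medians, and triangles mark values beyond 5. Salicylate and immune genes lie to the right (median 1.08), and the NAC, MYB and HD-Zip, PP2C, auxin and dehydration lists to the left (medians -0.70, -0.65, -0.60 and -0.46).

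Of the 29 lists plotted, salicylate and immune genes had the highest median. Of 23 genes 21 rose and 0 fell, with a median of 1.08, where 17.5% of all genes rose. Besides PR1 and PR2, the transcription factor gene WRKY70 (AT3G56400) had 42.8 and 44.3 CPM in seu-6, against 17 and 18.8 CPM in Col-0 (log2 fold change 1.28 ± 0.073, edgeR adjusted p = 9.1e-23). CBP60G (AT5G26920), which activates salicylate synthesis, had 36.6 and 34.9 CPM in seu-6, against 13.4 and 13.3 CPM in Col-0 (log2 fold change 1.42 ± 0.089, edgeR adjusted p = 4.4e-21). Its relative SARD1 rose by 1.87 ± 0.12. The 2 groups were well separated for each of these genes. Smaller rises were seen for the synthesis enzyme gene ICS1 (0.51 ± 0.076), for the immune regulators EDS1 (0.51 ± 0.073) and PAD4 (0.80 ± 0.088) and for the salicylate receptor gene NPR1 (0.26 ± 0.062). ALD1 and SAG101 did not pass the test (1.08 ± 0.48 and 0.03 ± 0.097).

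Genes of glucosinolates, defence compounds of the mustard family, were mostly higher. The 2 myrosinase genes on the list, TGG1 and TGG2, whose enzymes cleave glucosinolates, were lower. All 7 indole glucosinolate and camalexin genes rose (median 0.40, against 0.61 in the mock). CYP83B1 had 652 and 653 CPM in seu-6, against 407 and 456 CPM in Col-0 (log2 fold change 0.60 ± 0.037, edgeR adjusted p = 3.2e-17), CYP79B2 rose by 0.40 ± 0.035 and the camalexin gene CYP71A13 by 1.59 ± 0.25. Of 16 aliphatic glucosinolate and myrosinase genes 11 rose and 3 fell (median 0.26). MAM3, a chain-elongation enzyme, had 219 and 225 CPM in seu-6, against 115 and 125 CPM in Col-0 (log2 fold change 0.89 ± 0.038, edgeR adjusted p = 5.1e-28). The falls were the 2 myrosinases, TGG2 and TGG1 (-1.0 ± 0.050), and the regulator MYB29 (-0.24 ± 0.088); TGG1 had 1501 and 1441 CPM in seu-6, against 2867 and 3022 CPM in Col-0. Of 32 jasmonate genes 31 were tested, of which 13 rose and 5 fell (median 0.15). TAT3, a jasmonate-induced tyrosine aminotransferase gene, had 27.3 and 25.9 CPM in seu-6, against 3.58 and 4 CPM in Col-0 (log2 fold change 2.81 ± 0.12, edgeR adjusted p = 3.1e-29). AOC2 (0.51 ± 0.036), LOX3 (0.85 ± 0.11) and LOX4 (1.01 ± 0.19) of synthesis and the repressor gene JAZ9 (0.56 ± 0.057) rose, while LOX2, with 503 and 489 CPM in seu-6, against 713 and 746 CPM in Col-0, fell (-0.56 ± 0.036). The flavonoid genes were split, 5 higher and 4 lower of 15 tested out of 17: CHS, the entry enzyme, rose (0.89 ± 0.057), and the anthocyanin regulators PAP1 (-1.62 ± 0.27) and TT8 (-0.77 ± 0.19) fell.

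Auxin genes were mostly lower in seu-6. Of 37 genes 20 fell and 2 rose, with a median of -0.60. GH3.5 (AT4G27260) had 17.3 and 18.6 CPM in seu-6, against 79.5 and 80.7 CPM in Col-0 (log2 fold change -2.16 ± 0.070, edgeR adjusted p = 7.2e-35), and GH3.2 and GH3.6 fell as well (-1.69 ± 0.098 and -1.0 ± 0.067). The efflux carrier gene PIN7 (AT1G23080) had 140.3 and 138 CPM in seu-6, against 246 and 242 CPM in Col-0 (log2 fold change -0.81 ± 0.037, edgeR adjusted p = 1.4e-27), and PIN3 and PIN4 fell by 0.86 and 1.03 on the log2 scale. The early response gene IAA2 had 58.6 and 58.2 CPM in seu-6, against 112 and 114 CPM in Col-0 (log2 fold change -0.95 ± 0.046, edgeR adjusted p = 4.4e-26), and IAA29 fell by 1.79 ± 0.13. In all of these the seu-6 libraries were the lower ones. The genes that rose were TAA1, which makes the auxin precursor indole pyruvate, with 38 and 41.4 CPM in seu-6, against 14.3 and 16 CPM in Col-0 (log2 fold change 1.39 ± 0.077, edgeR adjusted p = 1.7e-23), and PIN2 (0.26 ± 0.063). Of 10 phytochrome-interacting factor and shade genes 7 fell and 0 rose (median -0.38, against -0.55 in the mock). PIF3 had 71.7 and 71.4 CPM in seu-6, against 144 and 137 CPM in Col-0 (log2 fold change -0.98 ± 0.049, edgeR adjusted p = 2.3e-25), and PIF5 fell by 0.53 ± 0.041. Among 24 wall-loosening genes 6 rose and 7 fell (median 0.02): the xyloglucan hydrolase gene XTH9 fell (-1.11 ± 0.064) and the expansin genes EXPA8 (1.12 ± 0.10) and EXPA1 (0.41 ± 0.041) rose.

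Of the 14 clock genes 6 rose and 5 fell, with a median of 0.02. CCA1 (AT2G46830), a morning factor, had 35 and 35.9 CPM in seu-6, against 80.6 and 80.2 CPM in Col-0 (log2 fold change -1.18 ± 0.060, edgeR adjusted p = 3.2e-25), and LHY, PRR9, RVE8 and RVE4 fell by 0.96, 0.74, 0.85 and 0.63 on the log2 scale. PRR5, a pseudo-response regulator gene, had 146 and 149 CPM in seu-6, against 91.5 and 97.5 CPM in Col-0 (log2 fold change 0.64 ± 0.041, edgeR adjusted p = 9.5e-21), and ELF4 (0.95 ± 0.095), LUX (0.48 ± 0.055), TOC1 (0.41 ± 0.043), GI (0.41 ± 0.037) and ELF3 (0.42 ± 0.054) rose too. PRR7 (0.05 ± 0.034), BOA (-0.01 ± 0.26) and RVE1 (-0.27 ± 0.14) did not pass the test. The sources used here do not give the hour of harvest, and its part in these values was not tested. Lists of heat shock and phosphate genes were called at a share near that of all genes or below it, 7 of 20 for phosphate and 3 of 13 for heat shock beside 34.9%. Of 13 heat shock genes tested 1 rose and 2 fell (median 0.05), and of 20 phosphate starvation genes 4 rose and 3 fell (median -0.01). The ion transport list above and the root marker and gibberellin lists below were also called at a share close to that of all genes. In these, 10 of 16, 12 of 19 and 10 of 16 members were not called.

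Summed tissue markers in sorbitol were lower in seu-6 for photosynthesis genes and higher for replication genes and for the root list, whose sum rests on PYK10. The 21 light harvesting and Rubisco genes summed to 84776 and 83418 CPM in seu-6, against 94705 and 93396 CPM in Col-0. Of the 20 tested 12 fell and 4 rose (median -0.17, against -0.23 in the mock). LHCB1.5 was listed at 0 in every library. Antenna genes made up the falls, such as LHCB2.1 with 2404 and 2379 CPM in seu-6, against 3286 and 3309.9 CPM in Col-0 (log2 fold change -0.46 ± 0.027, edgeR adjusted p = 2e-22), and the 4 genes of the Rubisco small subunit rose, RBCS1B by 1.02 ± 0.053. The 19 root markers summed to 4287 and 4219 CPM in seu-6, against 2391 and 2552 CPM in Col-0; 4 rose and 3 fell, and 0 of them had an empty library. That sum was carried by PYK10, a root glucosidase gene, with 4082 and 4013 CPM in seu-6, against 2189.9 and 2333 CPM in Col-0 (log2 fold change 0.84 ± 0.032, edgeR adjusted p = 3.9e-22). The 8 endodermis markers summed to 109 and 115 CPM in seu-6, against 97.2 and 106 CPM in Col-0, and the 6 epidermis markers to 39.6 and 37.5 CPM in seu-6, against 35.8 and 41.6 CPM in Col-0. The genotypes overlapped in the epidermis sum. NRT2.1, a root nitrate transporter gene, fell by 2.11 ± 0.099. Replication and division genes summed to 385 and 390.5 CPM in seu-6, against 345 and 342 CPM in Col-0, with 10 of 24 higher and 2 lower (median 0.07); the rises were replication genes such as MCM6 (0.60 ± 0.11), PCNA1 (0.63 ± 0.11) and RNR1 (0.50 ± 0.053), while the mitotic genes CYCB1;2 (-0.22 ± 0.090) and PLEIADE (-0.31 ± 0.10) fell. The part of tissue makeup in the other gene groups was not tested.

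Seed and embryo transcripts were near 0 in sorbitol in both genotypes. The 12 genes summed to 3.57 and 3.59 CPM in seu-6, against 3.68 and 4.05 CPM in Col-0; 4 were called higher in seu-6 and 1 lower, and 11 of the 12 had an empty library somewhere in the experiment. The cruciferin gene CRA1 had 0.989 and 0.917 CPM in seu-6, against 0.101 and 0.0497 CPM in Col-0 (log2 fold change 3.61 ± 0.40, edgeR adjusted p = 2.7e-11). The call of CRC, at 0.104 and 0.0248 CPM in seu-6, against 0 and 0 CPM in Col-0, was lost with DESeq2 (adjusted p = 0.0566), in the fit of all 16 libraries (edgeR adjusted p = 0.0581), and without the first seu-6 library or either Col-0 library (edgeR adjusted p = 0.299, 0.12 and 0.124). In the mock the same genes summed to 184 and 184 CPM in seu-6, against 0.390 and 0.541 CPM in Col-0, and 10 of 12 were called higher. CRC had 29.6 and 29 CPM in seu-6, against 0 and 0 CPM in Col-0 there. Both seu-6 mock libraries held transcripts of these seed and embryo genes and both seu-6 sorbitol libraries hardly any. Their source was not tested. The list member EM1 went the other way, with no read in any mock library. In sorbitol it had 0.260 and 0.694 CPM in seu-6, against 1.26 and 1.47 CPM in Col-0. Its call there was kept in 9 of the 14 alternative fits. Among the losses were DESeq2 (adjusted p = 0.0727) and the fit of all 16 libraries (edgeR adjusted p = 0.11). Over these fits the log2 fold change of EM1 ranged from -2.38 to -0.98, smallest in size without the first seu-6 library.

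In the mock, 3461 genes were called higher in seu-6 (16.0%) and 2552 lower (11.8%), together 27.8%. These calls come from libraries not shared with the sorbitol comparison but from the same fit. The genes higher in both media numbered 1994, which is 52.7% of those higher in sorbitol and 57.6% of those higher in the mock. Those lower in both numbered 1600, or 42.6% of those lower in sorbitol and 62.7% of those lower in the mock. The genotype difference itself differed between the media for 2812 genes (13.0%), 1216 with a higher (5.62%) and 1596 with a lower value in sorbitol (7.38%), by edgeR's interaction contrast. Of the genes higher in sorbitol, 833 (22%) had such a higher difference, and of the genes lower in sorbitol, 995 (26.5%) had a lower one. The interaction contains the same sorbitol libraries that picked these genes. Picking by the sorbitol value favours an interaction of the same sign by itself, so both shares are descriptive only. Some genes changed sides: 73 were called higher in sorbitol and lower in the mock, and 216 lower in sorbitol and higher in the mock. Each also had a called interaction, which opposite calls in the same fit make very likely, so that adds no support.

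**Figure D4:**
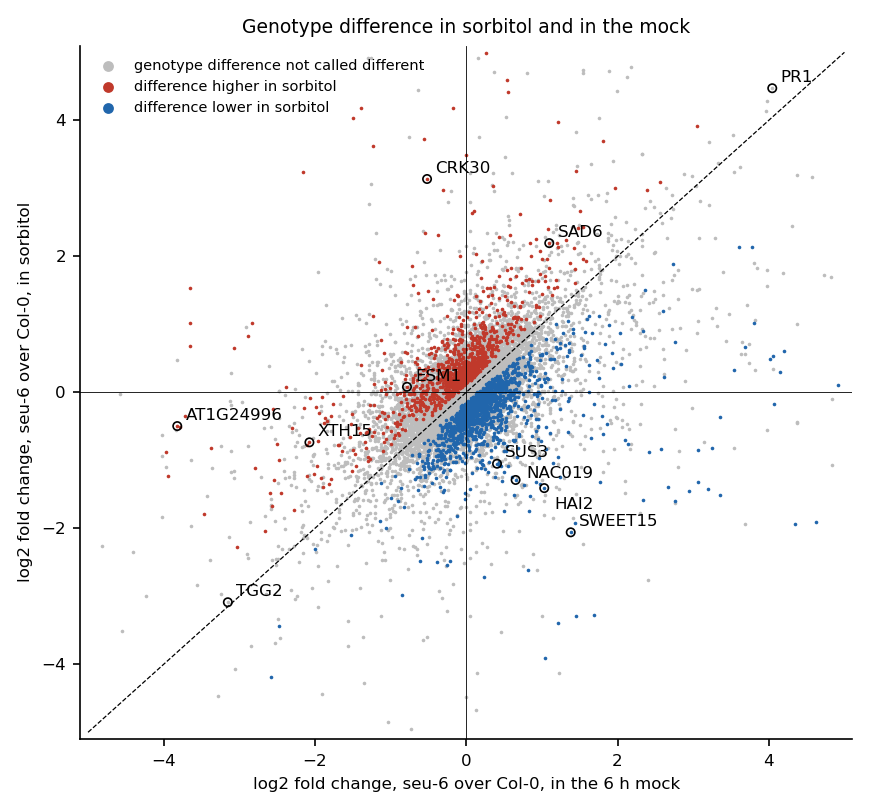
Log2 fold change of seu-6 over Col-0 in sorbitol (vertical axis) against that in the 6 h mock (horizontal axis) for each gene tested. Red points have a genotype difference called higher in sorbitol (1216 genes), blue points one called lower (1596 genes); the dashed line marks equal differences, and 87 genes beyond 5 on either axis are not drawn. SWEET15 and NAC019 lie below the line with a positive value in the mock and a negative one in sorbitol, and TGG2 lies on it.

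The dehydration genes were mostly lower in seu-6 in sorbitol and more often higher than lower in the mock. Among the 24 dehydration genes 2 were higher and 22 lower in seu-6 in sorbitol, against 12 higher and 5 lower in the mock (median 0.22), and the interaction was called lower for 20 and higher for 1. The seed list described above, at 184 and 184 CPM in seu-6, against 0.390 and 0.541 CPM in Col-0 in the mock, was higher in the same seu-6 libraries, and its part in the mock differences and in the interactions was not tested. RD29B had 223 and 213 CPM in seu-6, against 294 and 301 CPM in Col-0 in sorbitol, and 0.746 and 0.860 CPM in seu-6, against 0.298 and 0.635 CPM in Col-0 in the mock (log2 fold change 0.79 ± 0.26, edgeR adjusted p = 0.022); the difference between the media was -1.23 ± 0.26 (edgeR adjusted p = 0.00037). TSPO had 18.9 and 17.7 CPM in seu-6, against 44.3 and 39.8 CPM in Col-0 in sorbitol, and 0.313 and 0.239 CPM in seu-6, against 0 and 0 CPM in Col-0 in the mock, with the interaction called lower (edgeR adjusted p = 3.7e-09). RD22 was lower in seu-6 in both media, with 90.3 and 94.4 CPM in seu-6, against 126 and 127 CPM in Col-0 in the mock, and further apart in sorbitol (interaction -0.58 ± 0.046, edgeR adjusted p = 1.2e-15). In the mock 2 of the 9 PP2C genes were higher and 3 lower in seu-6 (median 0.05), and 7 interactions were called lower and 0 higher. Of the 16 NAC, MYB and HD-Zip genes 5 were higher and 2 lower in the mock (median 0.03), and 11 interactions were called lower and 0 higher. NAC019 had 4.43 and 4.44 CPM in seu-6, against 2.59 and 3.06 CPM in Col-0 in the mock (log2 fold change 0.65 ± 0.12, edgeR adjusted p = 1.5e-05), opposite to its difference in sorbitol (interaction -1.94 ± 0.14, edgeR adjusted p = 1.3e-17). SWEET15 had 0.674 and 1.03 CPM in seu-6, against 0.390 and 0.259 CPM in Col-0 in the mock, and its interaction was -3.44 ± 0.30 (edgeR adjusted p = 7.4e-14). P5CS1 was lower in seu-6 in both media (mock -0.33 ± 0.039, interaction -0.61 ± 0.050). NCED3 was also lower in the mock (-1.09 ± 0.14), and its interaction was not called (-0.22 ± 0.16, edgeR adjusted p = 0.42).

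**Figure D5:**
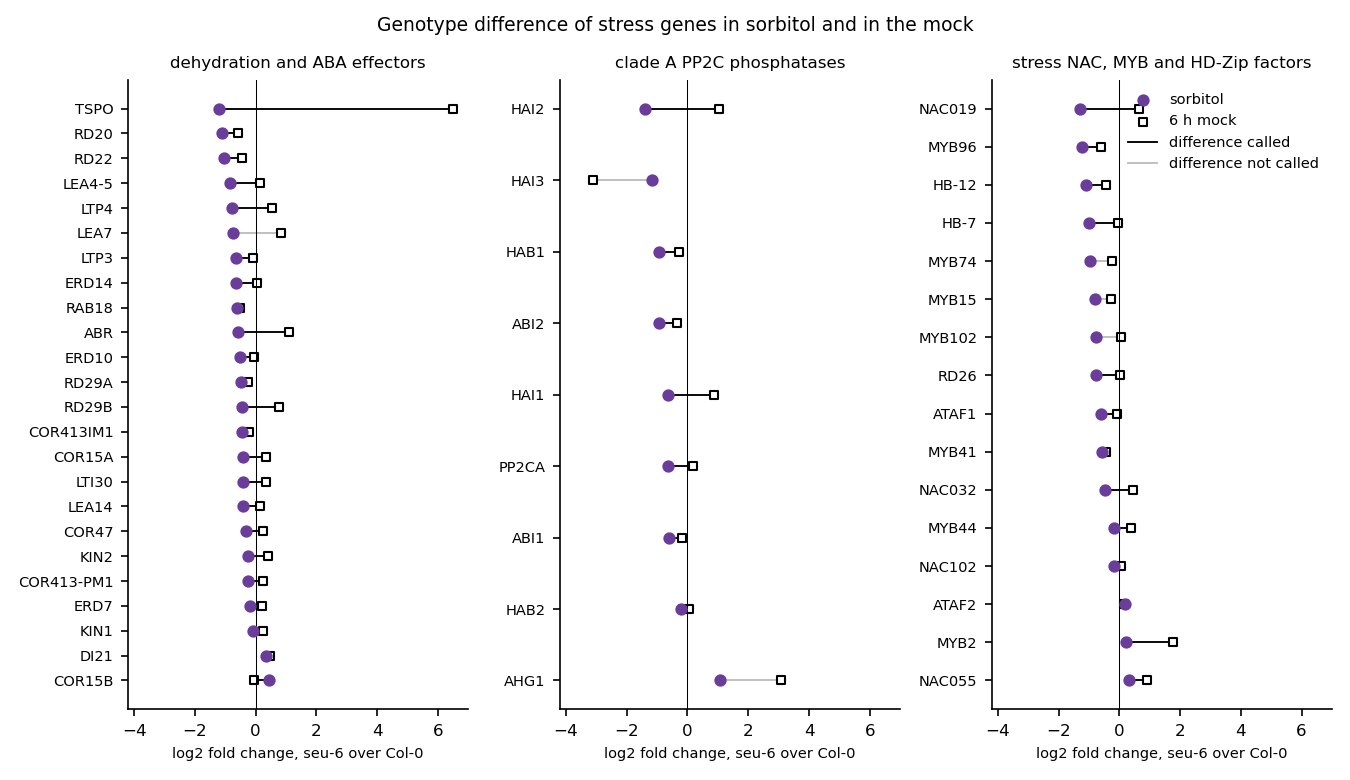
Log2 fold change of seu-6 over Col-0 in sorbitol (purple circles) and in the 6 h mock (open squares) for each tested member of 3 stress lists, ordered by the sorbitol value. Black connecting lines mark a called difference between the media and grey lines one not called. The circles left of 0 include 22 of 24, 8 of 9 and 12 of 16 called genes, and 20 of 24, 7 of 9 and 11 of 16 genes had a called lower value in sorbitol than in the mock.

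The medians of the salicylate, auxin and jasmonate lists had the same sign in both media. The salicylate and immune genes were 19 higher and 0 lower in the mock (median 0.59), and 5 interactions were called higher and 1 lower. PR1 had 44.5 and 42.9 CPM in seu-6, against 3.25 and 2.02 CPM in Col-0 in the mock. The auxin genes were 25 lower and 1 higher in the mock (median -0.78, against -0.60 in sorbitol), with 11 interactions called higher and 2 lower. IAA29 had a mock value of -3.47 ± 0.14 and an interaction of 1.68 ± 0.19 (edgeR adjusted p = 5e-10). XTH15, a wall gene, had 11.1 and 11.1 CPM in seu-6, against 18.4 and 18.6 CPM in Col-0 in sorbitol and 24.1 and 23 CPM in seu-6, against 96.9 and 101 CPM in Col-0 in the mock, with an interaction of 1.34 ± 0.099 (edgeR adjusted p = 9.8e-17). The jasmonate genes were 24 higher and 3 lower in the mock (median 0.41), and 12 interactions were called lower and 1 higher. The repressor gene JAZ9 had 70.6 and 70.8 CPM in seu-6, against 36.7 and 33.7 CPM in Col-0 in the mock (interaction -0.45 ± 0.080, edgeR adjusted p = 2.1e-05). TGG2 had 72.9 and 70.1 CPM in seu-6, against 649 and 622 CPM in Col-0 in the mock, and its interaction of 0.06 ± 0.049 did not pass the test (edgeR adjusted p = 0.47). CRK30 was lower in the mock (log2 fold change -0.52 ± 0.12, edgeR adjusted p = 0.00067), with 14.5 and 15.7 CPM in seu-6, against 22.8 and 20.4 CPM in Col-0, and had an interaction of 3.65 ± 0.34 (edgeR adjusted p = 7.3e-13).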

How the data were processed

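Poly(A) RNA of whole seedlings was sequenced, and the values used are the read counts per gene that the authors deposited, 1 table per library, with no normalization. Per the labels' protocols, Trizol extraction preceded selection on poly(A) beads and the NEXTflex library kit. The submitters' processing notes name HISAT2 2.2.1, HTSeq 0.13.5, DESeq2 and the build TAIR10. The sources used here do not give the strand setting, the annotation release or the filters on reads. The 5 summary lines of each table stayed out of library sizes and tests. Symbols came from a TAIR10.1 table, used for names and gene order alone, where 32548 of 32833 loci were found.

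The 8 libraries of the sorbitol experiment were fitted together with edgeR 4.0.16 in R 4.3.3 (TMM, filterByExpr, robust quasi-likelihood F test, 1 mean per group, no block, 4 residual degrees of freedom), which left 21633 genes. A gene was called higher or lower ("rose" or "fell") where its p, adjusted by Benjamini-Hochberg over all genes tested, was under 0.05. The contrasts were seu-6 minus Col-0 in sorbitol, the same in the mock, and the first minus the second (the interaction). The standard error is the size of the log2 fold change divided by the square root of F. It rests on the spread pooled over the 4 groups and across genes, since 2 libraries say little about any single gene. The labels name replicates but not separate cultures, so p-values cover the spread between these samples, which may be technical. Replicates of each group differed by more than sampling noise (chi-square per degree of freedom from 3.31 to 8.95), so each was counted.

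Floors of 3 counts cover counting error only. The comparison, its members and the 30 gene lists (489 entries, after textbook roles) were chosen with earlier results of these data known, and 9 more lists were added after the values were seen. The rule for genes to name took the 12 largest changes each way where average log2 CPM was 2 or more, the 4 members of a list with the smallest adjusted p, the 10 genes with the smallest interaction p, and SEU with its co-regulators. The text prints part of these, and other members it names were chosen after their values were seen. Other settings tried were DESeq2 1.42.0, DESeq2 size factors within edgeR, all genes kept without the filter, a replicate block, a fit of all 16 libraries, one of the 4 sorbitol libraries, and the omission of each of the 8 libraries in turn.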

Additional observations from a re-analysis of the deposited data

Results flagged for a closer look

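The 10 genes below had the smallest p in the test of whether the genotype difference in sorbitol differed from that in the mock; each value is the log2 fold change of seu-6 over Col-0 in sorbitol minus that in the mock, from edgeR's quasi-likelihood test with Benjamini-Hochberg adjustment, with 2 libraries per group. They were picked from all genes by that p. ESM1, a GDSL lipase-like gene that affects glucosinolate breakdown, had 1287 and 1273 CPM in seu-6, against 1206 and 1215 CPM in Col-0 in sorbitol and 401 and 397 CPM in seu-6, against 689 and 685 CPM in Col-0 in the mock, a log2 difference between the media of 0.86 ± 0.042 (edgeR adjusted p = 2.7e-24). Its genotype difference lay in the mock, and the small one in sorbitol (0.08 ± 0.029) was not called without any 1 of the 4 sorbitol libraries (edgeR adjusted p between 0.0943 and 0.228). AT5G41670, annotated as a 6-phosphogluconate dehydrogenase, had 579 and 557 CPM in seu-6, against 337 and 323 CPM in Col-0 in sorbitol and 424 and 432 CPM in seu-6, against 479.6 and 489.6 CPM in Col-0 in the mock, a log2 difference between the media of 0.96 ± 0.047 (edgeR adjusted p = 2.7e-24). AT1G73600, annotated as a methyltransferase, had 423 and 409 CPM in seu-6, against 185 and 182 CPM in Col-0 in sorbitol and 309.6 and 315 CPM in seu-6, against 276 and 265 CPM in Col-0 in the mock, a log2 difference between the media of 0.97 ± 0.048 (edgeR adjusted p = 2.9e-24). In both the seu-6 libraries lay above those of Col-0 in sorbitol and the Col-0 level was lower there than in the mock. AT4G34950, of the major facilitator family, had 90.3 and 85.4 CPM in seu-6, against 34.6 and 34.4 CPM in Col-0 in sorbitol and 122 and 127 CPM in seu-6, against 112 and 107 CPM in Col-0 in the mock, a log2 difference between the media of 1.17 ± 0.066 (edgeR adjusted p = 1.2e-21).

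FTM1 (AT1G43800, also SAD6), a stearoyl carrier protein desaturase gene, had 218 and 225 CPM in seu-6, against 48.9 and 47.8 CPM in Col-0 in sorbitol and 274 and 274 CPM in seu-6, against 130.3 and 125 CPM in Col-0 in the mock, a log2 difference between the media of 1.1 ± 0.054 (edgeR adjusted p = 2.9e-24). The hemoglobin gene HB1 (AT2G16060) had 135 and 130.5 CPM in seu-6, against 41.5 and 39.9 CPM in Col-0 in sorbitol and 208 and 214 CPM in seu-6, against 135 and 134 CPM in Col-0 in the mock, a log2 difference between the media of 1.05 ± 0.059 (edgeR adjusted p = 5.6e-22). Both were higher in seu-6 in both media and further apart in sorbitol. AT4G21910, of the MATE efflux family, had 135 and 128 CPM in seu-6, against 216 and 212 CPM in Col-0 in sorbitol and 77.5 and 80.2 CPM in seu-6, against 58.3 and 57.6 CPM in Col-0 in the mock, a log2 difference between the media of -1.15 ± 0.060 (edgeR adjusted p = 2.7e-23), with opposite directions in the media. AT3G62550, annotated with adenine nucleotide hydrolases, had 407 and 391 CPM in seu-6, against 377 and 372 CPM in Col-0 in sorbitol and 139 and 146 CPM in seu-6, against 72.5 and 70.6 CPM in Col-0 in the mock, a log2 difference between the media of -0.90 ± 0.050 (edgeR adjusted p = 5.6e-22). BT1, a BTB-domain protein gene, had 147 and 151 CPM in seu-6, against 141 and 136 CPM in Col-0 in sorbitol and 336 and 333 CPM in seu-6, against 172 and 167 CPM in Col-0 in the mock, a log2 difference between the media of -0.87 ± 0.050 (edgeR adjusted p = 1.8e-21). For the last 2 genes the genotypes differed in the mock and hardly in sorbitol (0.09 ± 0.034 and 0.11 ± 0.036). The call of AT3G62550 in sorbitol was lost with DESeq2 (adjusted p = 0.0528) or without the first seu-6 library or either Col-0 library (edgeR adjusted p between 0.0836 and 0.418), and that of BT1 without the second library of either genotype (edgeR adjusted p = 0.175 for seu-6 and 0.234 for Col-0).

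AT1G24996, an uncharacterized protein gene, had 3.44 and 3.84 CPM in seu-6, against 4.41 and 5.86 CPM in Col-0 in sorbitol and 3.8 and 3.46 CPM in seu-6, against 52.3 and 50.4 CPM in Col-0 in the mock, a log2 difference between the media of 3.32 ± 0.18 (edgeR adjusted p = 7.8e-23). The Col-0 mock libraries stood alone at the higher level. This difference was not called in the fit of all 16 libraries (edgeR adjusted p = 0.395), while it was called in each of the other alternatives run, and its fall in sorbitol was lost in that fit (edgeR adjusted p = 0.85) and without the second Col-0 library (edgeR adjusted p = 0.177).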

How the results depend on the processing

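Under the 14 alternatives to the fit, the counts of genes called in each contrast and the value of SEU stayed on the same side and within 1.5 times in all 94 values computed. For sorbitol, DESeq2 called 3154 higher and 3189 lower, and the fits with 1 library left out between 2836 and 3816 higher and between 2962 and 3799 lower; those fits take a group left with 1 library to vary like the others. Of the 7540 calls, between 73.9% and 99.5% were shared with each alternative, and 0 turned round. Across all genes the median moved by at most 0.0117 on the log2 scale. Without the second Col-0 sorbitol library the list medians of galactinol, raffinose and starch genes and of tonoplast aquaporins became 0.0801 and 0.117, with opposite sign to the values above; the cause was not tested. Over the fits with 1 library left out these medians ranged from -0.167 to 0.0801 and from -0.0665 to 0.117. Medians near 0 also crossed it: wall loosening ranged from -0.0999 to 0.0984, phosphate genes from -0.0749 to 0.0159, heat shock genes from -0.159 to 0.047 and clock genes from -0.0466 to 0.0793, so these have no settled sign. Over all lists and alternatives 470 medians stayed within the spread between replicates, 74 moved beyond it and 2 reversed, and 1026 counts of list members stayed within 1.5 times while 66 did not. Of 2648 values for named genes 2599 kept their call, 45 lost it, 4 gained it and 0 reversed. Deviations of same-numbered replicates correlated between -0.022 and 0.024, so no strong shared shift was seen. Such values cannot tell whether these libraries shared a culture or batch. With the replicate number as a block, 3737 genes were called higher and 3701 lower in sorbitol. Genes of low counts carry the widest errors, and 9206 genes had an unadjusted p under 0.05 in sorbitol.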

Other observations

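Lists of 9 further kinds were drawn up after the values had been seen, so their counts describe and support nothing. Hypoxia response genes were 9 higher and 1 lower of 11 in seu-6 under sorbitol (median 1.42), beside 17.5% and 17.4% of all genes and a median of -0.0005. ADH1, alcohol dehydrogenase of fermentation, had 467 and 450.3 CPM in seu-6, against 207 and 198 CPM in Col-0 (log2 fold change 1.18 ± 0.035, edgeR adjusted p = 3.8e-37). LBD41, a transcription factor gene of the low-oxygen response, had 115 and 116 CPM in seu-6, against 40.8 and 37.7 CPM in Col-0 (log2 fold change 1.56 ± 0.050, edgeR adjusted p = 3.5e-35). In the mock these genes were also higher in seu-6, 9 of 11 (median 0.65), and 7 interactions were called higher. Type-A response regulators, which cytokinin induces, were 6 higher and 0 lower of 9 (median 0.57). ARR5 had 15.4 and 14.8 CPM in seu-6, against 3.86 and 4.67 CPM in Col-0 (log2 fold change 1.82 ± 0.12, edgeR adjusted p = 7.6e-20), and ARR4 and ARR6 rose by 0.95 ± 0.052 and 1.26 ± 0.11.

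Wax, cutin and suberin genes were 13 lower and 0 higher of 17 tested (median -0.71), with 11 interactions called lower. CER6, an elongase of wax precursors, had 378 and 369 CPM in seu-6, against 678 and 689 CPM in Col-0 (log2 fold change -0.87 ± 0.033, edgeR adjusted p = 1.6e-31). The wax genes CER2 and KCS1 and the lipid transfer gene LTPG1 fell by 1.08, 0.97 and 0.85 on the log2 scale. Leaf polarity genes were 9 lower of 13 and 0 higher (median -0.29, against -0.40 in the mock), such as AS1 (-0.61 ± 0.069) and FIL (-0.55 ± 0.069). Growth-regulating factor genes were 5 lower and 1 higher of 10 (median -0.14, against -0.48 in the mock). The other lists were nitrate genes (6 higher and 4 lower of 13 tested), ethylene genes (3 and 6 of 13), gibberellin genes (1 and 5 of 16) and senescence genes (3 and 6 of 11 tested). UPM1, of siroheme synthesis, had 644 and 656 CPM in seu-6, against 364 and 366 CPM in Col-0 (log2 fold change 0.83 ± 0.032, edgeR adjusted p = 4.9e-31), and SAG13 had 25 and 25.9 CPM in seu-6, against 6.1 and 6.58 CPM in Col-0 (log2 fold change 2.0 ± 0.12, edgeR adjusted p = 3.5e-21).

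FTM1 lies 9 annotated loci from SEU on chromosome 1. Of the 24 loci up to 12 places from SEU on either side, 6 were tested, where 34.9% of all genes tested were called in sorbitol. FTM1, also a member of the hypoxia list above, was higher in seu-6 under sorbitol (2.19 ± 0.040). TED6 was lower (-0.55 ± 0.12, edgeR adjusted p = 0.0003) and AT1G43910 higher (0.38 ± 0.097, edgeR adjusted p = 0.0012). AT1G43860, which overlaps SEU, was not called (0.16 ± 0.067, edgeR adjusted p = 0.058), nor were AT1G43890 and AT1G43900. The part of position near SEU in these values was not tested.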
